A study of Bos taurus with 6 samples.

Results

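The genes described here are 10 markers of the endothelium, the cell layer that lines blood vessels: PECAM1, VWF, CDH5, KDR, CLDN5, TEK, EGFL7, EMCN, TIE1 and ENG. They were taken by name from a list of well-known endothelial genes, and all 10 were found among the 23704 genes of the series. RNA had been sequenced from pools of bovine primordial follicles (PMF) that were isolated mechanically, in 3 libraries taken after collection (T0) and 3 libraries taken after 16 h of culture (T16). By the study's methods, PMF came from the ovaries of Holstein Friesian cows of 12 to 24 months and recovered for 1 h in medium with insulin and FSH before they were stored. The culture of the T16 pools is known here only from its duration. The labels describe all 6 pools as oocytes with pre-granulosa cells and name no vessel cells, and no treatment other than time in culture sets the groups apart.

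Endothelial cells hold together through adherens junctions built on VE-cadherin (CDH5) and PECAM1 and through tight junctions built on claudin 5 (CLDN5). They receive growth signals through VEGFR2 (KDR) and stabilizing signals through the angiopoietin receptor TIE2 (TEK) and its partner TIE1, while endoglin (ENG) is a co-receptor for BMP and TGF-beta ligands. They also store and secrete von Willebrand factor (VWF), secrete EGFL7 into their matrix and carry the sialomucin endomucin (EMCN) on their surface. In the ovary, primordial follicles lie in a cortex with few vessels and have no capillary layer of their own, and a vascular network forms in the theca of growing follicles.

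Total estimated counts were 22174653 to 36703016 in a library, and p-values measure the spread between pools, since the origin of the pools from separate animals is not given in the sources used here. The oocyte genes summed to 402 and 74.3 TPM (a share of all transcripts, corrected for transcript length and library size) in T0 replicate 1 and T16 replicate 2 and to 657 to 2421 TPM elsewhere, so these libraries stood apart. The labelled cell types were present in the pools, with 132 to 1407 TPM for 8 granulosa genes.

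CLDN5 was the only abundant endothelial marker, and it was abundant in T0 replicates 1 and 2 alone. The other 9 genes averaged below 10 TPM over the 6 libraries. Summed over the 10 genes, the T0 libraries held 407, 256 and 28.4 TPM in replicates 1, 2 and 3, and the T16 libraries held 17.5, 49.2 and 22.0 TPM. CLDN5 made up 24.9% to 93.9% of this sum. Without it the remaining 9 genes summed to 25.0, 28.1 and 14.8 TPM at T0 and to 13.1, 17.9 and 5.10 TPM at T16, so the ranges of the groups overlapped. Fewer cells of a type and less RNA per cell cannot be told apart in such pools.

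None of the 10 genes differed between T16 and T0 by edgeR's quasi-likelihood test after Benjamini-Hochberg adjustment over all genes. Of the 10, 8 had at least 10 counts in at least 3 libraries and were tested, and EGFL7 and EMCN were not. The test called 0.041% of the 14639 genes tested, 0.0342% as higher and 0.00683% as lower at T16. At an unadjusted p below 0.05 it found 1 of the 8, CLDN5, against 13.8% of all genes, and DESeq2 also called 1, CLDN5, as lower, against 7.02% of all genes (4.07% higher and 2.95% lower). The log2 fold change was negative for 5 and positive for 3 of the 8, with a median of -0.58 beside -0.08 over all genes tested. By counts scaled to library size, the T16 and T0 libraries overlapped in level for all 8, whereas 24.1% of all genes had no overlap (12.5% higher and 11.6% lower at T16).

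**Figure D1:**
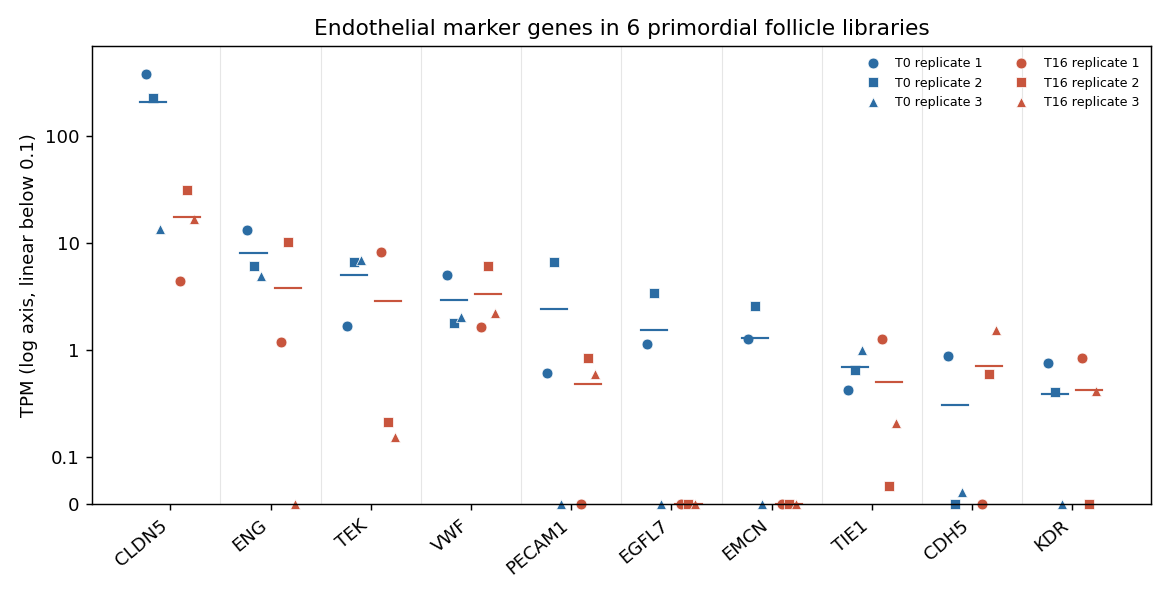
TPM of the 10 endothelial marker genes, ordered by their mean over the 6 libraries, on a log axis that is linear below 0.1. Points are single libraries, with the group in colour and the replicate in shape, and lines are group means. CLDN5 reaches 382 TPM in T0 replicate 1, and EGFL7 and EMCN lie at 0 in all T16 libraries and in T0 replicate 3.

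Most of the 10 genes were missing from at least 1 library. Only CLDN5, VWF, TEK and TIE1 had counts in all 6 libraries, and the other 6 had 0 counts in at least 1. Among all genes tested, 15.0% had a library at 0, against 4 of the 8 tested markers. T0 replicate 1 had at least 10 counts of all 10 genes, and T0 replicate 2 of 9. T0 replicate 3 had at least 10 counts of 5, and the T16 libraries of 6, 6 and 7. A count of 0 allows up to 0.0906 to 0.151 CPM (counts scaled to the library's total) in a library, for counting error only, because 3 counts set that limit. No molecular tags are named for these libraries, so reads are not independent molecules.

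No library was the highest for all of these genes. T0 replicate 2 was the highest for PECAM1, EGFL7 and EMCN. T16 replicate 1 was the highest for TEK, TIE1 and KDR, which encode receptors. CLDN5 and ENG were highest in T0 replicate 1, VWF in T16 replicate 2 and CDH5 in T16 replicate 3, while T0 replicate 3 was the highest for none.

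Among the junction genes, CLDN5 had the widest range. This membrane protein seals the tight junctions of vessels. Its level was 382, 228 and 13.6 TPM in T0 replicates 1, 2 and 3, from 6961, 5035 and 224 counts, and 4.36, 31.3 and 16.9 TPM in the T16 replicates, from 81, 511 and 470 counts. T0 replicates 1 and 2 stood far above every other library, while T0 replicate 3 lay below T16 replicates 2 and 3, so the groups overlapped. Its log2 fold change of -3.53 (SE 1.23, n = 3 and 3) did not pass the threshold by edgeR (adjusted p = 0.259). DESeq2 gave -3.55 (SE 1.02) and called it (adjusted p = 0.0129). With any 1 library left out the edgeR value stayed between -4.11 and -2.58, and no adjusted p fell below 0.248, while over all 14 settings it ranged from 0.0129 to 0.698. CLDN5 ranked at the 98.3rd percentile of all genes by TPM in T0 replicate 1 and at the 58.6th in T16 replicate 1.

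The summed pericyte and smooth muscle genes were highest in the same libraries as CLDN5, though not gene by gene, and their part in its level was not tested. The 12 pericyte and smooth muscle genes, led by TAGLN, MYH11, CNN1 and ACTA2, summed to 450, 339 and 116 TPM at T0 and 32.9, 124 and 62.5 TPM at T16, highest in the same 3 libraries as CLDN5. Of the 12, 5 had counts in every library and none was at 0 in all of them. Among the leading genes, TAGLN and CNN1 had the same 3 highest libraries as CLDN5, while MYH11 and ACTA2 were highest in the 3 T0 libraries. The 8 stroma genes, led by COL1A2, DCN, LUM and COL3A1, summed to 2510, 1230 and 1070 TPM at T0 and 275, 739 and 1679 TPM at T16. The stroma sum did not follow CLDN5, since T16 replicate 3 had the second highest stroma sum and 16.9 TPM of CLDN5. The pericyte marker RGS5 was near 0, with 0 to 32 counts in a library.

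Claudins other than CLDN5 were set beside it once their values had been seen. Of 22 claudin genes in the files 8 were tested, and CLDN5 had the second highest mean level over the 6 libraries. At T0 its mean of 208 TPM was the highest, above 186 TPM of CLDN10, and at T16 its mean of 17.5 TPM lay below those of CLDN10 (73.1 TPM), CLDN1 (31.9 TPM) and CLDN12 (31.5 TPM). CLDN1, a claudin best known from epithelia, had 276, 152 and 13.5 TPM at T0 and 12.4, 77.4 and 5.82 TPM at T16, and like CLDN5 it was highest in T0 replicates 1 and 2 (log2 fold change -2.26, SE 1.24, edgeR adjusted p = 0.494). CLDN10 had the highest mean over all libraries, with 50.4, 175 and 333 TPM at T0 and 171, 3.66 and 44.3 TPM at T16, a different order of libraries (log2 fold change -1.22, edgeR adjusted p = 0.723). CLDN12 was more even, at 14.4 to 39.8 TPM.

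CDH5, the cadherin found almost only in endothelium, was barely detected. It had 38, 0 and 1 counts at T0 and 0, 23 and 102 counts at T16, which gave 0.877, 0 and 0.0252 TPM and 0, 0.596 and 1.54 TPM. Each group held a library at 0 and a library with at least 38 counts. Its difference was 1.32 on the log2 scale (SE 2.20, n = 3 and 3, edgeR adjusted p = 0.858). Its level followed CLDN5 neither within T0, where T0 replicate 2 lacked it, nor within T16.

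PECAM1, an adhesion molecule of endothelium that leukocytes and platelets also carry, was concentrated in a single library. It had 429 counts in T0 replicate 2, or 6.57 TPM, against 32 and 0 counts in T0 replicates 1 and 3 and 0, 41 and 48 counts at T16. The other 5 libraries did not exceed 0.843 TPM. The log2 fold change of -2.10 (SE 2.17, n = 3 and 3, edgeR adjusted p = 0.752) turned to 0.72 without T0 replicate 2. Of 7 PECAM1 transcripts in the files 3 had counts, and the curated one held 77.8% of them. The leukocyte genes CSF1R, LCP1 and PTPRC were not highest in T0 replicate 2 by TPM. CSF1R had 40.3 TPM there and 0.0736 to 42.4 TPM in the other libraries, the highest being T0 replicate 3. LCP1 had 2.12 TPM there and 1.08 to 20.0 TPM in the others. PTPRC had 0.463 TPM there and 0 to 0.935 TPM in the others, and CD163 and CD2 had 0 counts in all 6.

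Among the receptors, TEK and TIE1 shared their order of libraries in part. TEK had 1.65, 6.66 and 6.86 TPM in T0 replicates 1, 2 and 3, from 122, 594 and 459 counts, and 8.18, 0.211 and 0.151 TPM in the T16 replicates, from 617, 14 and 17 counts. T16 replicate 1 was the highest of all 6 libraries and T16 replicates 2 and 3 the lowest, so the T16 values spanned those at T0. TEK had a log2 fold change of -0.77 (SE 1.41, n = 3 and 3, edgeR adjusted p = 0.873). Without T16 replicate 1 it was -4.71, with an edgeR adjusted p of 0.176, and the adjusted p was 0.176 to 0.974 over the settings. DESeq2 gave no p for TEK.

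TIE1, which binds no angiopoietin well by itself and modulates TIE2, was lower than TEK in most libraries. Its level was 0.419, 0.652 and 1.00 TPM at T0, from 24, 45 and 52 counts, and 1.26, 0.0389 and 0.206 TPM at T16, from 74, 2 and 18 counts. As for TEK, T16 replicate 1 held the most and T16 replicates 2 and 3 the least. The log2 fold change of -0.38 (SE 1.26, n = 3 and 3, edgeR adjusted p = 0.935) became 0.16 without T16 replicate 2 and -2.28 without T16 replicate 1. Both receptors were among the genes that followed the oocyte list in being lower in T0 replicate 1 than in T0 replicates 2 and 3. That list summed to 402, 1604 and 2421 TPM at T0 and to 1594, 74.3 and 657 TPM at T16, and its part in these levels was not tested.

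KDR, the main signalling receptor for VEGFA, was close to the limit of detection. It had 73, 47 and 0 counts at T0 and 83, 0 and 60 counts at T16, at most 0.842 TPM. A library at 0 occurred in each group, and the group means were 0.384 TPM (SD 0.376, n = 3) and 0.417 TPM (SD 0.421, n = 3). KDR gave a log2 fold change of 0.12 (SE 1.99, edgeR adjusted p = 0.989), and its SE is far larger than the value. It was 1.22 without T0 replicate 1 and -0.69 without T16 replicate 1.

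ENG was the best expressed of the 4 receptors in T0 replicate 1, where CLDN5 was also highest. Its levels were 13.3, 6.03 and 4.91 TPM at T0, from 566, 312 and 190 counts. At T16 they were 1.19, 10.1 and 0 TPM, from 52, 389 and 0 counts. The highest T16 library lay within the T0 range, and the other 2 lay below it. For ENG the log2 fold change was -1.14 (SE 1.68, n = 3 and 3, edgeR adjusted p = 0.838), and it was -3.84 without T16 replicate 2. ENG is also made by stromal and mesenchymal cells. The stroma list summed to 2510, 1230 and 1070 TPM at T0 and to 275, 739 and 1679 TPM at T16, and its part in the level of ENG was not tested.

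**Figure D2:**
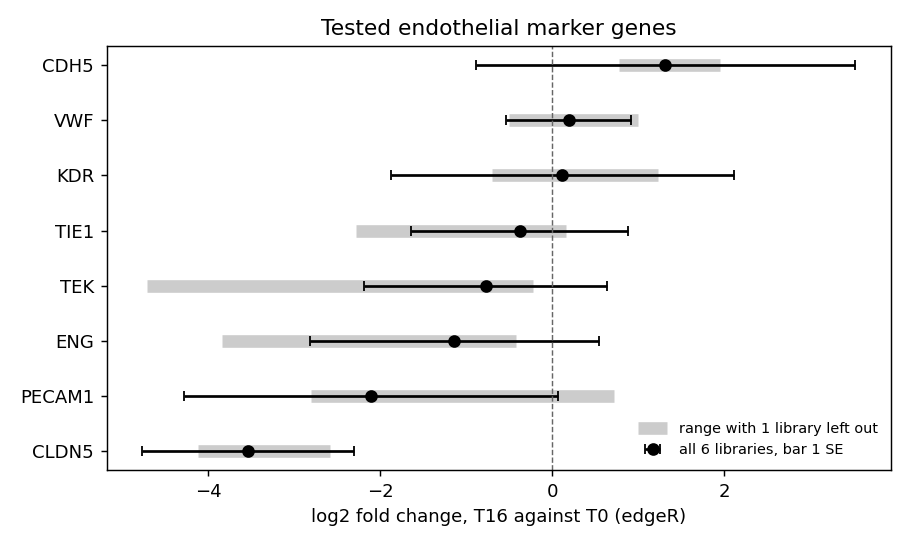
Log2 fold change of T16 against T0 by edgeR for the 8 endothelial markers tested. Points are the values from all 6 libraries with bars of 1 SE, and grey bars span the values with 1 library left out. Only CLDN5, ENG, TEK and CDH5 keep their sign when any 1 library is left out, as far as they could be tested, and CLDN5 has the only value more than 2 SE away from 0.

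Among the secreted and surface proteins, VWF was the most even marker. This clotting factor of endothelium and platelets had 5.02, 1.77 and 2.02 TPM at T0, from 715, 307 and 257 counts, and 1.65, 6.10 and 2.21 TPM at T16, from 236, 782 and 473 counts. T16 replicate 2 and T0 replicate 1, the libraries with the least oocyte transcript, were the highest. For VWF the log2 fold change was 0.19 (SE 0.73, n = 3 and 3, edgeR adjusted p = 0.944), the smallest SE among the 8 genes tested, and it turned to -0.51 when T16 replicate 2 was left out and to 0.99 when T0 replicate 1 was. The 2 VWF transcripts in the files held 48.1% and 51.9% of its counts. The platelet genes PF4 and ITGA2B reached at most 13 and 27 counts in a library, and PPBP had 0 in all 6. GP9 had counts in all 6, from 7 in T16 replicate 2 to 69 in T16 replicate 3.

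EGFL7 and EMCN were detected in T0 replicates 1 and 2 and in no other library. EGFL7, a secreted regulator of vessel tube formation, had 24 and 88 counts there, or 1.14 and 3.40 TPM. EMCN, a marker of capillary and venous endothelium, had 33 and 79 counts, or 1.26 and 2.56 TPM. T0 replicate 3 and all 3 T16 libraries had 0 counts of either gene. Each gene summed to 112 counts over the T0 libraries and 0 over the T16 libraries. This is at least 42.9-fold lower at T16 in CPM summed over the group, taking 3 counts over the T16 libraries as the limit, but T0 replicate 3 at 0 means that the groups overlap. The files held 3 of the 7 EGFL7 transcripts of the reference table and all counts fell on 1 predicted transcript. Of 5 EMCN transcripts 4 had counts.

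VEGFA, VEGFB and VEGFC were above KDR in level in every library, while PGF and VEGFD were low. None of the 8 tested genes of the list of VEGF ligands and other receptors was called by edgeR or DESeq2, and 0 had an unadjusted edgeR p below 0.05. VEGFA, the ligand of KDR, had 8.24, 5.72 and 28.3 TPM at T0 and 53.0, 21.5 and 20.3 TPM at T16 (log2 fold change 1.29, SE 0.67, n = 3 and 3, edgeR adjusted p = 0.465). T0 replicate 3 lay above T16 replicates 2 and 3. VEGFC, which acts on FLT4, was even, with a mean of 30.6 TPM (SD 11.8, n = 3) at T0 and 28.2 TPM (SD 4.71, n = 3) at T16. VEGFB had 16.6 to 24.9 TPM at T0 and 5.93 to 15.1 TPM at T16, every T16 library below every T0 library (log2 fold change -1.03, SE 0.61, edgeR adjusted p = 0.529). PGF stayed between 0.640 and 5.68 TPM, and VEGFD was near 0 outside T16 replicate 1, with 0 to 2 counts elsewhere and 47 there.

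FLT1, a VEGFA receptor with weak signalling that also exists as a soluble decoy, was far more abundant than KDR in every library. It had 24.1, 72.4 and 83.4 TPM at T0 and 96.6, 2.68 and 24.6 TPM at T16. Like TEK and TIE1, it was highest in T16 replicate 1, and T16 replicate 2 was the lowest. Its log2 fold change was -0.53 (SE 0.99, n = 3 and 3, edgeR adjusted p = 0.875). FLT4 had 0 counts in T16 replicates 2 and 3 and 0.480 to 2.39 TPM elsewhere. The neuropilin co-receptor NRP1 reached 46.4 TPM with overlapping groups, and NRP2 had 3.26 to 5.93 TPM at T0 and 0.227 to 2.07 TPM at T16 (log2 fold change -2.03, SE 0.90, edgeR adjusted p = 0.384).

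Of the angiopoietins, which bind TEK, ANGPT2 was the most abundant at T0. It had 29.2, 40.7 and 15.8 TPM at T0, from 1209, 2037 and 592 counts, and 0.142, 5.90 and 0 TPM at T16, from 6, 219 and 0 counts. All 3 T16 libraries lay below all 3 T0 libraries. A log2 fold change of -3.82 (SE 1.80, n = 3 and 3) passed neither by edgeR (adjusted p = 0.411) nor by DESeq2 (adjusted p = 0.0999). Without T16 replicate 2 it was -8.68, with an edgeR adjusted p of 0.0805, the lowest over the settings (highest 0.837). ANGPT1, the agonist of TEK, stayed at or below 1.61 TPM, and ANGPT4 had 1.70, 6.21 and 5.43 TPM at T0 and 7.63 TPM in T16 replicate 2, with 0 counts in T16 replicates 1 and 3. PTPRB, the phosphatase VE-PTP that acts on TEK and VE-cadherin, had at most 1.04 TPM. Of the 4 genes of this list 0 were called by edgeR or DESeq2, and none had an unadjusted edgeR p below 0.05.

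**Figure D3:**
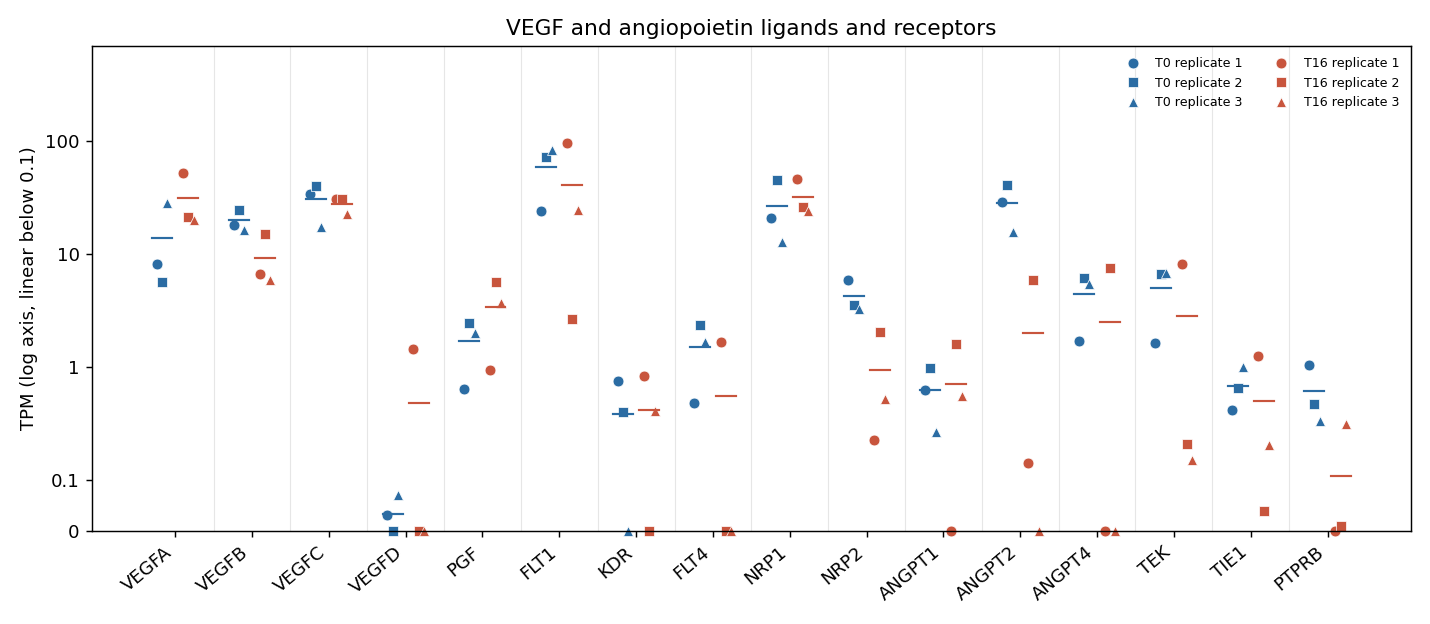
TPM of VEGF ligands and receptors and of angiopoietins, their receptors and VE-PTP, on a log axis that is linear below 0.1. Points are single libraries, with the group in colour and the replicate in shape, and lines are group means. FLT1 lies above KDR in every library, and ANGPT2 lies at 15.8 to 40.7 TPM at T0 and at or below 5.90 TPM at T16.

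The partners of ENG were partly well expressed, while its high-affinity ligands were not detected. GDF2 (BMP9) and BMP10 had 0 counts in all 6 libraries. Of the 14 other genes in the endoglin pathway list, edgeR called 0 and DESeq2 called 1, ACVRL1, against 7.02% of all genes by DESeq2. An unadjusted edgeR p below 0.05 was found for 5 of the 14, against 13.8% of all genes. ACVRL1, the endothelial type I receptor ALK1, had 22, 151 and 88 counts at T0 and 6, 0 and 8 counts at T16 (log2 fold change -4.18, SE 1.46, n = 3 and 3, edgeR adjusted p = 0.263, DESeq2 adjusted p = 0.0438, highest over the settings 0.607). TGFBR2, a receptor for TGF-beta, had 17.1, 6.68 and 7.32 TPM at T0 and 37.6, 20.9 and 37.7 TPM at T16, with no overlap. TGFBR1, its partner, had 33.6, 28.9 and 44.6 TPM at T0 and 133, 55.9 and 43.9 TPM at T16. By TPM its T16 replicate 3 lay just below T0 replicate 3, while by CPM every T16 library lay above every T0 library. Their edgeR adjusted p-values were 0.238 for TGFBR2 and 0.281 for TGFBR1. These 3 receptors were named after their values were seen.

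The BMP target genes of the ID family were the most abundant of the list together with SMAD4. ID3 had 367, 748 and 458 TPM at T0 and 34.9, 289 and 50.7 TPM at T16, each T16 library below each T0 library (log2 fold change -1.98, SE 0.78, n = 3 and 3, edgeR adjusted p = 0.320). ID1 and ID2 averaged 271 and 229 TPM at T0 and 77.6 and 54.7 TPM at T16, with overlapping groups. SMAD4, the common mediator, had 66.1 TPM (SD 15.3, n = 3) and 92.8 TPM (SD 26.8, n = 3). The median log2 fold change of the list was -1.03, beside -0.08 over all genes tested.

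Several junction partners of VE-cadherin were far above CDH5 in level in all 6 libraries. Beta-catenin (CTNNB1) had 276 to 510 TPM, plakoglobin (JUP) 136 to 424 TPM, alpha-catenin (CTNNA1) 50.1 to 200 TPM and the junctional adhesion molecule JAM3, a membrane protein, 70.6 to 247 TPM. The p120-catenin gene CTNND1, named after its values were seen, had only 4.36 to 9.22 TPM. The catenins also serve the cadherins of other cells. All 10 genes of that list were tested and 0 were called by edgeR or DESeq2. Of the 10, 1 had an unadjusted edgeR p below 0.05, against 13.8% of all genes.

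The other endothelial markers ranged from nearly absent to well expressed. Of 18 on the list 17 were found and 10 tested, and 7 had counts in all libraries. CD34 had at most 1 count in a library, and MMRN1, ROBO4 and PROCR had at most 4, 19 and 13. Thrombomodulin (THBD) averaged 52.3 TPM over the 6 libraries, RAMP2 28.2 TPM, CLEC14A 21.8 TPM and NOSTRIN 10.8 TPM. THBD was uneven, with 21.7, 68.7 and 123 TPM at T0 and 4.04, 1.36 and 95.4 TPM at T16. CLEC14A ranged from 6.89 to 51.9 TPM. ECSCR and PLVAP resembled EGFL7 and EMCN, with 37 and 184 counts of ECSCR and 113 and 72 counts of PLVAP in T0 replicates 1 and 2, and no more than 2 counts in any other library. NOSTRIN had 29.8, 15.0 and 13.2 TPM at T0 and 0, 4.29 and 2.25 TPM at T16, each T16 library below each T0 library (log2 fold change -3.13, SE 1.48, edgeR adjusted p = 0.412). CD34, MMRN1, ROBO4, PROCR, ECSCR and PLVAP were named after their values were seen.

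Of the 10 tested genes of this list, 3 had every T16 library above every T0 library, against 12.5% of all genes tested. These were ESAM, CALCRL and S1PR1, which too were named after their values were seen. Another 3, NOSTRIN among them, had every T16 library below every T0 library, against 11.6% of all genes tested. CALCRL, the adrenomedullin receptor, had 0.948, 0.453 and 0 TPM at T0 and 5.87, 3.29 and 3.01 TPM at T16 (log2 fold change 3.04, SE 1.46, edgeR adjusted p = 0.422). S1PR1, a receptor for sphingosine 1-phosphate, had 1.61, 2.07 and 0.699 TPM at T0 and 5.11, 6.28 and 2.42 TPM at T16 (log2 fold change 1.71, SE 0.76, edgeR adjusted p = 0.381). ESAM, an adhesion molecule of endothelial tight junctions and platelets, had 0.935, 0.564 and 0.0793 TPM at T0 and 17.8, 14.7 and 12.9 TPM at T16, from 26, 19 and 2 counts and 506, 367 and 549 counts. All 3 T16 libraries stood far above all 3 T0 libraries. ESAM had a log2 fold change of 4.86 (SE 1.01, n = 3 and 3), which did not pass by edgeR (adjusted p = 0.107) and passed by DESeq2 (adjusted p = 1.82e-06). With 1 library left out the value was 4.36 to 5.70, and edgeR's adjusted p was never below 0.101. The highest adjusted p over the settings was 0.493. ESAM was the only one of the 10 tested genes of its list that DESeq2 called, against 7.02% of all genes. edgeR called 0 of the 10, with 2 at an unadjusted p below 0.05, against 13.8% of all genes.

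Transcription factors of the endothelial lineage were scarce apart from ETS1 at T16. At T0 the mean of ETS1 (4.56 TPM) lay below those of HHEX (8.69 TPM) and SOX17 (6.92 TPM). ERG, FLI1, TAL1, LYL1 and BCL6B did not pass the count filter, and ERG had 0, 26 and 19 counts at T0 and 0 in all T16 libraries. ETS1, which is active in many cell types, had 6.73, 2.54 and 4.40 TPM at T0 and 115, 50.4 and 57.2 TPM at T16, with no overlap (log2 fold change 4.11, SE 0.54, n = 3 and 3). It missed the threshold by edgeR (adjusted p = 0.0838) and passed by DESeq2 (adjusted p = 7.95e-11), and the highest adjusted p over the settings was 0.331. HHEX, SOX17 and MEF2C averaged 8.28, 4.56 and 4.19 TPM over the 6 libraries, with overlapping groups. Of 8 genes tested edgeR called 0 and DESeq2 called 1, ETS1, against 7.02% of all genes by DESeq2. An unadjusted edgeR p below 0.05 was found for 2, ETS1 and SOX18, against 13.8% of all genes. SOX18, named after its values were seen, had 3.68, 12.1 and 4.04 TPM at T0 and 1.54, 0.307 and 0.956 TPM at T16. Its log2 fold change was -2.66 (SE 0.98, n = 3 and 3, edgeR adjusted p = 0.283, DESeq2 adjusted p = 0.0594). Over the 8 genes the log2 fold change was negative for 6 and positive for 2. Every T16 library lay above every T0 library for ETS1 and below for SOX18, against 12.5% and 11.6% of all genes tested.

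Several genes that mark kinds of endothelium are also made by other cells. Of the 9 tested arterial, venous and lymphatic genes, edgeR called 0 and DESeq2 called 1, against 7.02% of all genes by DESeq2. An unadjusted edgeR p below 0.05 was found for 2 of the 9, against 13.8% of all genes. GJA5, the arterial connexin 40, averaged 118 TPM (SD 57.2, n = 3) at T0 and 45.2 TPM (SD 24.4, n = 3) at T16 (edgeR adjusted p = 0.330). PDPN had 58.4 to 93.3 TPM at T0 and 33.7 to 44.4 TPM at T16, with no overlap (edgeR adjusted p = 0.529). EFNB2, the arterial ephrin, had 18.0, 11.7 and 20.6 TPM at T0 and 59.2, 55.3 and 22.0 TPM at T16 (SE 0.42 on the log2 scale, edgeR adjusted p = 0.175, DESeq2 adjusted p = 0.0480, highest over the settings 0.665). NR2F2 averaged 17.5 and 9.73 TPM at T0 and T16.

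Among the 4 activation genes, P-selectin (SELP) had 7.29, 28.4 and 8.17 TPM at T0 and 107, 52.5 and 27.8 TPM at T16. Its log2 fold change of 2.18 (SE 0.66, n = 3 and 3) did not pass by edgeR (adjusted p = 0.203) and passed by DESeq2 (adjusted p = 0.0319), and the highest adjusted p over the settings was 0.507. E-selectin (SELE), which only endothelium makes, had 1 to 5 counts in a library and was not tested. VCAM1 and ICAM1 averaged 36.0 and 10.9 TPM over the 6 libraries with overlapping groups, and at T0 the mean of VCAM1 (30.6 TPM) was above that of SELP (14.6 TPM). Of 3 tested genes edgeR called 0 (1 at an unadjusted p below 0.05, against 13.8% of all genes). DESeq2 called 1 of the 3, against 7.02% of all genes.

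**Figure D4:**
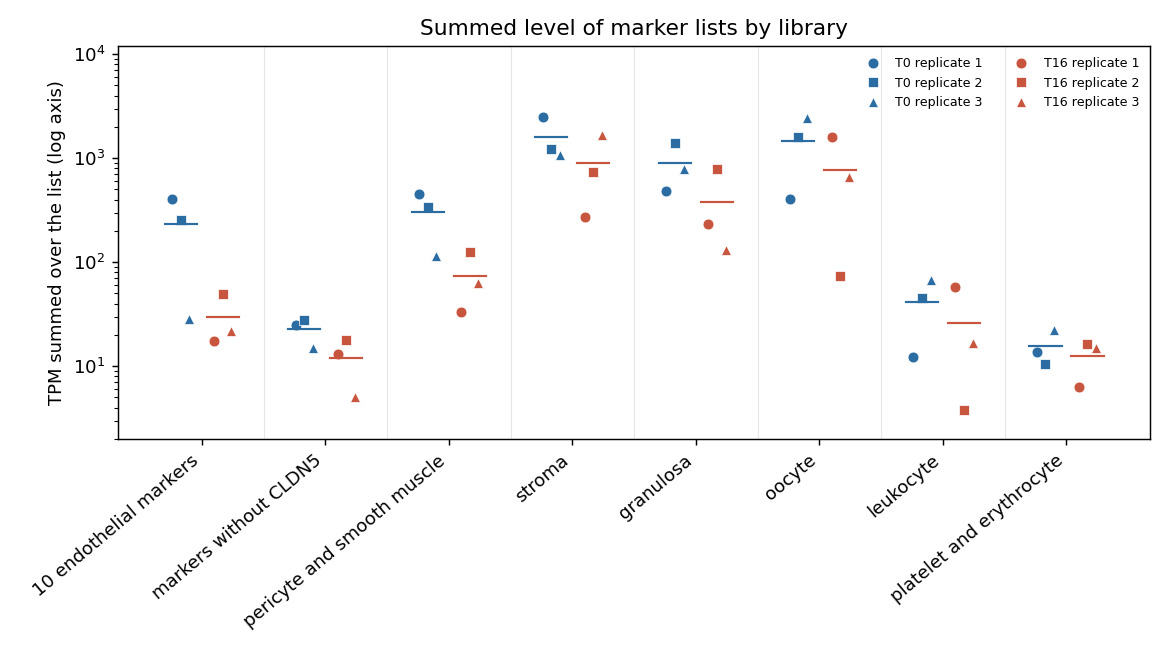
TPM summed over marker lists in each library, on a log axis, for the 10 endothelial markers with and without CLDN5 and for 6 lists of other cells. Points are single libraries, with the group in colour and the replicate in shape, and lines are group means. The endothelial sum reaches 407 TPM with CLDN5 and 28.1 TPM without it, while stroma holds 275 to 2510 TPM.

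The summed leukocyte genes were above the 10 markers in T0 replicate 3 (67.8 against 28.4 TPM) and in T16 replicate 1 (57.7 against 17.5 TPM). Most of these sums was CSF1R, with 42.4 and 37.8 TPM there, while PTPRC reached at most 0.935 TPM in any library. The part of the leukocyte genes in the levels of the markers was not tested. The 12 leukocyte genes summed to 12.2 to 67.8 TPM at T0 and 3.82 to 57.7 TPM at T16, with CSF1R at 0.0736 to 42.4 TPM, and CD14 was at 0 in all libraries but T0 replicate 3. The platelet and erythrocyte genes summed to 10.5 to 22.3 TPM and 6.33 to 16.5 TPM, mostly HBA, and HBB and ALAS2 had 0 counts in all 6. The surface epithelium genes, mostly KRT19, summed to 71.9 to 225 TPM and 34.8 to 240 TPM. For these lists and for the pericyte, stroma, granulosa and oocyte lists, edgeR called 0 genes, and an unadjusted p below 0.05 was found for 1 of 6 leukocyte, 0 of 3 platelet and erythrocyte, 1 of 4 surface epithelium, 2 of 10 pericyte and smooth muscle, 1 of 8 stroma, 3 of 8 granulosa and 0 of 10 oocyte genes. DESeq2 called 1 stroma, 2 granulosa and 1 surface epithelium genes, all lower at T16, and 0 in the other 4 lists. Over all genes, 13.8% had an unadjusted edgeR p below 0.05, and DESeq2 called 7.02% (2.95% lower).

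Outside the gene lists, the genes most like the mean of the 8 tested markers over the 6 libraries were ADAMTS10, LRFN3, TNFSF10, GSTA5 and TTC3. The 8 markers were highest in different libraries, and the part of CLDN5 in their mean was not tested. Likeness was the Pearson correlation between a gene's log2(CPM + 1) and the mean of that value over the 8 markers, which was 3.29, 3.18 and 2.10 at T0 and 1.95, 2.18 and 1.79 at T16. It was 0.999 for ADAMTS10, a secreted metallopeptidase, and 0.976 to 0.980 for the other 4, over 6 libraries that share depth and composition within a library. These are the highest of the tested genes outside the lists and were given no p. ADAMTS10 had 3.11, 2.88 and 1.07 TPM at T0 and 0.991, 1.15 and 0.590 TPM at T16. TNFSF10 (TRAIL) had 2.57, 2.27 and 0.461 TPM at T0 and 0.0585 to 0.192 TPM at T16. All 5 were highest in T0 replicates 1 and 2, and none was called by edgeR (adjusted p = 0.167 to 0.511), while DESeq2 called GSTA5 (adjusted p = 0.000367).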

How the data were processed

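The submitters made cDNA from total RNA of each PMF pool with SMART-Seq v4. Per the labels and the study's methods, reads were trimmed by the authors (Trim Galore, fastp) and quantified with Salmon on RefSeq transcripts of ARS-UCD1.3. The deposited files give, for each transcript, estimated counts and TPM set by the authors' quantification. Here both were added up by gene through a RefSeq table of ARS-UCD2.0, used for names alone, and the count sums were rounded. Names were found for 50205 of 76123 transcripts, with 89.1% to 90.3% of a library's counts.

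The 3 T16 and 3 T0 libraries were compared in edgeR 4.0.16 under R 4.3.3 (TMM, quasi-likelihood test, FDR below 0.05). Genes needed 10 counts or more in 3 libraries or more. SE is the size of the log2 fold change over the square root of F. Alternatives were DESeq2 1.42.0, its size factors, other filters, length offsets, a replicate block and left-out libraries. The members and the 16 gene lists were chosen with earlier results of these data known. Named genes are the members, all genes of the VEGF and angiopoietin lists, up to 4 of each other list by mean TPM and any called gene. Also named are the 5 most alike outside the lists and those said to be named after their values were seen. The procedure was tested on simulated data. The result of 1 list gene is not reported here.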

Additional observations from a re-analysis of the deposited data

How the results depend on the processing

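edgeR called 6 genes in all, and 0 of the 8 tested endothelial markers. The markers stayed at 0 under every edgeR alternative (replicate block, DESeq2 size factors, no count filter, at least 50 counts, transcript length offsets, 1 library left out, and both oocyte-poor libraries left out, the last chosen after seeing the data), while DESeq2 called 1. The count over all genes was 1019 by DESeq2, 11 without the count filter, 0 with both oocyte-poor libraries left out and 0 to 3 with 1 library left out. The replicate block gave 0. Same-numbered samples did not deviate together (correlations -0.445, -0.121 and -0.00469 for replicates 1, 2 and 3, and 0 pairs best with their own number). Whether they share animals or a collection day is not given, and so few correlations cannot decide it. The log2 fold change of KDR turned to -0.0080 with the block. With 1 library left out, the log2 fold changes went from -2.80 to 0.72 for PECAM1, from -0.51 to 0.99 for VWF, from -0.69 to 1.22 for KDR, from -2.28 to 0.16 for TIE1 and from -2.00 to 0.020 for FLT1. The log2 ratio of the summed TPM was -2.96, and -0.91 without CLDN5. It went from -3.55 to -2.27 with 1 library left out. The cause of these shifts was not tested. Low counts of most markers limit what could be seen.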
